A study of Mus musculus with 931 samples.

Results

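Single β cells of the newborn mouse pancreas (P0, the day of birth) are described here by what they express, in how many cells each gene was detected and how far the level of a gene differed from cell to cell. The cells were those collected from Ins1-RFP mice, whose red fluorescent reporter is driven by the insulin 1 gene, at P0 and labelled RFP-positive, with no second hormone named in the label and no enrichment for proliferating cells. They numbered 71 of the 917 cells in the single-cell table, with 33 in batch 1 and 29 in batch 2, both FACS-sorted, and 9 in batch 4, which was picked by hand. Batch 3 (9 cells) was left out because its cells had been enriched for proliferating ones, and 4 more cells were left out because their label named a second hormone (Sst in 3, Ppy in 1).

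The study followed mouse islet cells from embryonic stage E17.5 to adulthood. The cDNA of each single cell was amplified by Smart-seq2, a full-length method without molecular identifiers, so that reads, not molecules, were counted. Beside the P0 cells, 4 sets of samples are used. Single β cells from Ins1-RFP mice at E17.5 (57 cells, 3 batches) and P3 (88 cells, 5 batches) are the neighbouring stages, and single α cells from Gcg-Cre; Rosa-RFP mice at P0 (46 cells, 3 batches) are the other cell type of the same day. Sorted RFP-positive β cells of Ins1-RFP mice were sequenced in bulk, with 2 libraries each at P0, E17.5 and P3. The Ins1-RFP mice had a mixed C57BL/6 and C3H background, and the Gcg-Cre; Rosa-RFP mice a mixed C57BL/6, CBA/J and C3H background, so the 2 cell types differ in strain and reporter as well. In the α cells the reporter marks every cell in which the glucagon promoter has driven Cre.

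β cells make proinsulin, fold it in the endoplasmic reticulum (ER), cut it with the convertases Pcsk1 and Pcsk2 and carboxypeptidase E, and store insulin with zinc and islet amyloid polypeptide in granules. Glucose enters through Slc2a2, is broken down to yield ATP, and the rise in ATP closes the Kcnj11 and Abcc8 channel, which opens the way to exocytosis. Rodents carry 2 insulin genes, and newborn β cells are known to be immature: they hold little of the maturity genes Mafa and Ucn3, and divide more often than adult ones.

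The cells held 814978 to 1765972 gene reads each (median 1.27 M) and 91.9 M in all, with 46.8 M in batch 1, 35.5 M in batch 2 and 9.66 M in batch 4. Spike-in RNA took 1.13% to 5.36% of the reads of a cell. A cell had 7261 to 11510 genes with at least 1 read (median 8083). No pair of the 71 cells had identical counts (0 pairs). Ins1, Ins2 and Iapp stood at 100 CPM (gene reads scaled to a common total per cell) or more in 71 of 71 cells. The reporter and the label chose the cells by Ins1, and 12, 11 and 46 of 46 P0 α cells also reached that level of Ins1, Ins2 and Iapp, so this is a description and no independent check of the label. Markers of several other cell types were near 0 in the P0 batches: the highest marker mean was 1.40 TPM (the same scale after division by gene length) among the acinar list, 0.865 TPM among the endothelial list, 0.226 TPM among the mesenchymal list, 3.78 TPM among the immune list and 0.983 TPM among the Schwann list. Of these lists, 8 of 11 acinar, 4 of 6 endothelial, 7 of 7 mesenchymal, 4 of 6 immune and 3 of 4 Schwann markers had a read in any cell, and the immune markers Cd74 and Lyz2 had 0. Of the duct list, the keratin Krt7 stood at 99.9 ± 13.7 TPM with a read in 71 of 71 cells and Spp1 at 102 ± 72.1 TPM with a read in 43. Lists of other islet cells held higher members. The α list reached 541 TPM (Ttr, list median 3.39 TPM), with 3 of 10 markers read in every cell. The δ list reached 411 TPM (Rbp4, list median 1.94 TPM), the PP list 550 TPM (Pyy) and the ε list 2.16 TPM. Erythroid transcripts reached 11.0 TPM on average, and of them Hba-a2 had 0.151, 1.28 and 31.4 TPM in batches 1, 2 and 4. The labels name batches but no animals, so the batch is the replicate throughout, and p-values measure only the spread between batches, which may be technical.

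The 2 insulin genes opened the list of transcripts, and because their coding sequences are alike, what separates them is shown here. Ins1 lies at chr19:52264297-52265476 on the plus strand and Ins2 at chr7:142678656-142743381 on the minus strand (GRCm38, GENCODE annotation). Over the 324 aligned coding bases, 300 were identical (92.6%), and the longest run without a difference was 54 bases. The opening 150 coding bases, which encode the signal peptide and the start of the B chain, are given 5′ to 3′ with capitals at the 14 positions that differ.
Ins1: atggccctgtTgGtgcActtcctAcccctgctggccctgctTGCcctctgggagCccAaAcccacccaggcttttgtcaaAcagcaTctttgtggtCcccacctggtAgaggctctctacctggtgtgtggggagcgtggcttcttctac
Ins2: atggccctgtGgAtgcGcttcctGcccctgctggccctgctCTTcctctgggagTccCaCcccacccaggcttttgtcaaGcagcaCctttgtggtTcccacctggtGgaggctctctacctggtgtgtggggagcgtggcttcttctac
A read that falls within a shared run cannot be given to 1 of the 2 genes, and how such reads were treated is not given in the sources used here, so the split between Ins1 and Ins2 is less certain than their sum.

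Between-gene levels are given in TPM, which allows for gene length, as the mean over the cells of a batch. Ins2 had 378221, 377086 and 323258 TPM in batches 1, 2 and 4, a mean of 359522 ± 31410 TPM (SD, n = 3 batches). Ins1 had 154223, 163096 and 144755 TPM, a mean of 154025 ± 9172. Iapp, which encodes islet amyloid polypeptide, had 47037, 50999 and 43796 TPM, a mean of 47278 ± 3608. Those 3 genes held 58.7% of all gene TPM, the 10 most abundant gene rows 66.8%, the 100 most abundant 73.7% and the 1000 most abundant 86.2%. The order Ins2, Ins1, Iapp was the same in each of the 3 batches, with no overlap between their batch values.

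Granule proteins and the enzymes that process them followed. Chga (chromogranin A, a granule matrix protein) had 3684, 4127 and 3691 TPM in batches 1, 2 and 4. Cpe (carboxypeptidase E, which trims the cut ends of prohormones) had 1593, 1835 and 2694 TPM, and Scg2 (secretogranin II) 1738, 1486 and 2134 TPM. Nnat (neuronatin, an imprinted membrane protein of the ER) averaged 2821 ± 996 TPM with 2617, 1942 and 3903 TPM by batch. Of this group only Chga was about equal in the 3 batches, while batch 4 held the highest value of Cpe, Scg2 and Nnat. Further down, G6pc2, the islet glucose-6-phosphatase subunit, averaged 1088 ± 230 TPM, the granule zinc transporter Slc30a8 929 ± 220 TPM, the ER chaperone Hspa5 (BiP) 913 ± 330 TPM and the disulfide isomerase Pdia3 746 ± 266 TPM. The neighbours of this order lay within each other's spread: from Gpx3 at 1131 ± 48.6 TPM down to Scg3 at 743 ± 138 TPM the means differed from the next by less than their SD. In addition to the named genes, 11 rows with clone or predicted names stood at 1000 TPM or more, led by Yam1 at 41159 TPM, and are not described further.

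**Figure D1:**
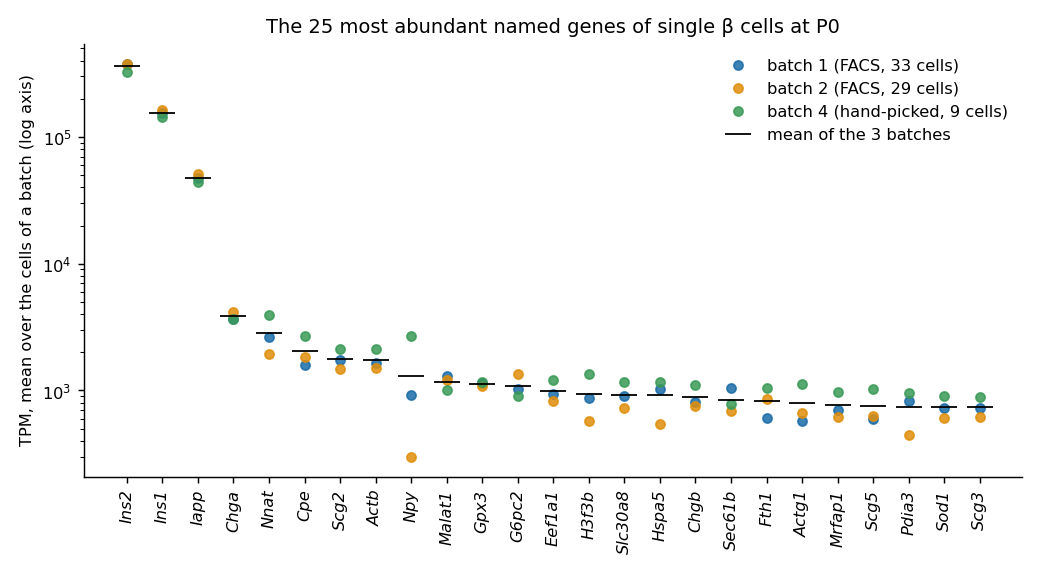
Mean TPM of the 25 most abundant named genes in batches 1, 2 and 4 of the P0 β cells, on a log axis; points are batches and black bars the mean of 3 batches. Ins2, Ins1 and Iapp lie apart from the rest, and Npy spreads from 297 TPM in batch 2 to 2683 TPM in batch 4.

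The genes of β cell identity lay far below insulin. Among islet transcription factors, Neurod1 averaged 152 ± 9.57 TPM, Pax6 105 ± 40.2, Nkx6-1 73.4 ± 10.6, Isl1 62.3 ± 15.3, Pdx1 51.5 ± 7.79 and Nkx2-2 29.2 ± 3.76 TPM (SD, n = 3 batches). Pdx1 and Nkx6-1 had a read in 71 of 71 cells. Mafa, a factor of mature rodent β cells, averaged 0.41 ± 0.406 TPM with a read in 15 cells, and Neurog3, the endocrine progenitor factor, had a read in 7 cells. The glucose transporter Slc2a2 averaged 292 ± 78.2 TPM, Abcc8 134 ± 45.2 TPM, the incretin receptor Glp1r 59.4 ± 10.8 TPM and the channel pore Kcnj11 12.1 ± 2.98 TPM. Slc2a2 was detected in 71 cells, Glp1r in 67 and Kcnj11 in 51. Ucn3 (urocortin 3, a marker of mature β cells) averaged 65.1 ± 23.0 TPM and was detected in 55 cells. Of 16 genes known to be kept low in β cells (median 0.494 TPM), the ornithine aminotransferase Oat stood highest at 38.7 ± 3.7 TPM with a read in 55 cells, followed by Mgst1 at 10.5 ± 9.18 TPM in 24 cells and the catalase gene Cat at 7.16 ± 4.33 TPM in 31. At the low end, lactate dehydrogenase Ldha averaged 0.428 ± 0.638 TPM with a read in 28 cells, the lactate carrier Slc16a1 0.146 TPM with a read in 13 cells, and hexokinase Hk1 had 0 reads in 71 cells, which at a floor of 3 reads allows a share of reads of up to 0.0326 CPM.

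Few genes were found in every cell. Of 40824 gene rows, 1150 (2.82%, median 88.7 TPM) had a read in all 71 cells, 3078 (7.54%, median 36.3 TPM) in 90% of cells or more, 7225 (17.7%, median 4.46 TPM) in 20% to 80% of cells and 5799 (14.2%, median 0.0859 TPM) in under 5% of cells, while 19148 (46.9%) had none. Detection followed level in this way, but 33 genes (0.0808%) were found in 20% to 80% of cells and yet averaged 100 CPM or more where they were found. The neuropeptide gene Npy had a read in 19 of 33, 15 of 29 and 9 of 9 cells of batches 1, 2 and 4, at a mean of 703 CPM where detected and 6657 CPM in the highest cell. Pyy (peptide YY) had a read in 25, 25 and 6 cells of those batches, at 388 CPM where detected and 7517 CPM in the highest. Spp1 (osteopontin) had a read in 22, 18 and 3 cells, at 259 CPM where detected. Others of this kind were the cell division genes Top2a (22 cells, 314 CPM where detected), Mki67 (17 cells, 280 CPM) and Spc25 (53 cells, 251 CPM), the lipid-sensing receptor Gpr119 (23 cells, 143 CPM), Cd79a (36 cells, 138 CPM), best known as a B cell receptor chain, and the surface protein gene Msln (21 cells, 158 CPM). For each of these genes, cells with 0 reads stood beside cells with a high level in the same batch.

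**Figure D2:**
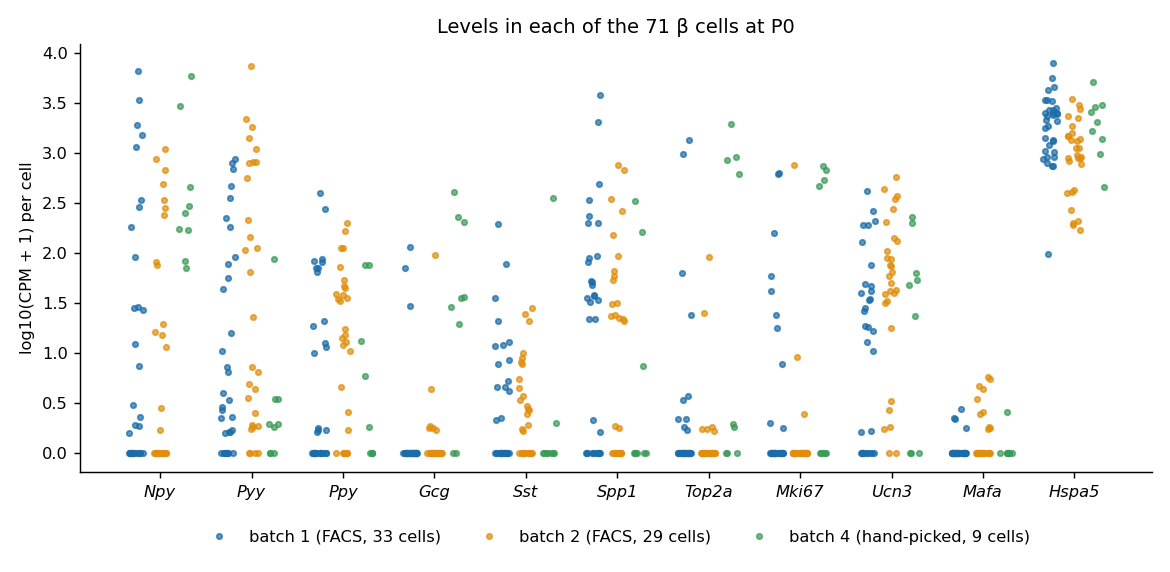
Levels of 11 genes in the 71 P0 β cells, as log10(CPM + 1), by batch; each point is a cell. Hspa5 is spread over a continuous range in all cells, whereas Npy, Pyy, Top2a and Mki67 are at 0 in many cells and reach 6657, 7517, 1950 and 763 CPM in the highest ones.

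Hormones other than insulin were low in most of the cells; since the labels' hormone call chose these cells, that is a description of the choice. At 100 CPM or more, Gcg stood in 1 of 33, 0 of 29 and 3 of 9 cells of batches 1, 2 and 4, Sst in 1, 0 and 1, Ppy in 2, 4 and 0, and Ghrl in 0 of 71 cells (exact 95% binomial interval up to 5.06%). The highest cell had 411.6 CPM of Gcg, 354.5 CPM of Sst, 396.5 CPM of Ppy and 8.409 CPM of Ghrl. Pyy, which is not a hormone of the labels, reached 100 CPM in 7, 13 and 0 cells of the 3 batches. For comparison of the background, the P0 α cells had Ins1 at 100 CPM or more in 12 of 46 cells and at 1 read or more in 37, so reads of a hormone gene were also found in cells of the other type. All intervals and floors cover counting error only.

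The level of an abundant gene also differed between cells. Ins1 ran from 63580 to 246533 TPM (median 161210) and Iapp from 24328 to 107300 TPM (median 48071) over the 71 cells, with a coefficient of variation (CV, the SD over the mean of CPM across the cells of a batch) of 0.254, 0.199 and 0.263 for Ins1 in batches 1, 2 and 4. Ins2 ran from 1183 to 522312 TPM (median 396097), with CVs of 0.327, 0.294 and 0.253. In 69 cells the ratio of Ins1 to Ins2 reads lay between 0.214 and 1.8 (median 0.684), and 2 cells, found after the values were seen, stood apart. A cell of batch 1 had 410 Ins2 reads against 148942 Ins1 reads, a ratio of 363, and a cell of batch 2 had 5557 against 119729, a ratio of 21.5. Both kept other β cell transcripts. The batch 1 cell had 246533 TPM of Ins1, the highest TPM of the 71, but TPM is a share that rises where Ins2 is nearly absent. In CPM, also a share, its Ins1 stood at 169775, below the 197031 CPM of the highest cell. The batch 1 cell also had 47840 TPM of Iapp, 53.4 TPM of Pdx1 and 84.1 TPM of Nkx6-1, although only 2.67 TPM of G6pc2, the lowest of the 71. The batch 2 cell had 107300 TPM of Iapp, the highest of the 71, and 2809 TPM of G6pc2. A ratio above 5 occurred in 1 of 467 unselected β cells of the other stages. These are single cells without replicates, and the cause of the ratio was not tested.

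**Figure D3:**
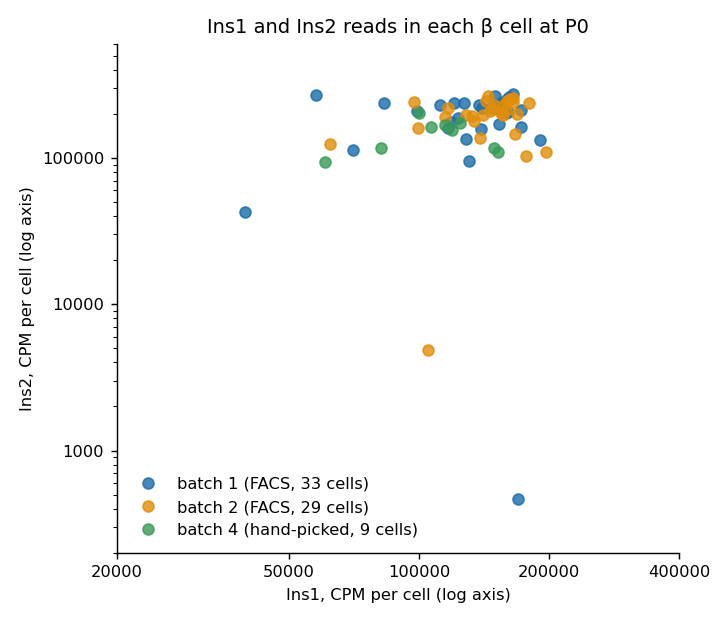
Ins1 (x axis) and Ins2 (y axis) in each of the 71 P0 β cells, in CPM on log axes, coloured by batch. The 2 cells far below the rest hold 410 and 5557 Ins2 reads.

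To set genes against others of the same abundance, the squared CV of each gene was divided by the median squared CV of the 201 genes nearest to it in mean level. The log2 of that ratio is called the excess variation, computed within a batch for genes at 5 CPM or more (9648, 9665 and 10091 genes in batches 1, 2 and 4, with a median CV of 1.17, 1.11 and 1.13). For the most abundant genes, most of the nearest genes lie at lower levels, so the abundance is not matched there. The spike-in RNAs, which measure technical noise, had a fitted CV of 0.0244, 0.0214 and 0.0897 at high level, and 67.8%, 60.9% and 61.6% of genes lay above the spike-in trend. Spike-ins were scaled by the spike-in total of each cell, so their CV leaves out noise shared by all spike-ins of a cell. Genes were scaled by gene reads, so the share above the trend is a rough description. Over 8545 genes measured in all 3 batches, the excess of a gene in batch 1 and batch 2 had a Spearman correlation of 0.489, that in batches 1 and 4 of 0.382 and that in batches 2 and 4 of 0.389. These correlations are across genes, which are not independent replicates.

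The 15 genes of largest excess were chosen in batch 1, so their values there only describe the choice, while batches 2 and 4 did not enter it. Npy had an excess of 5.72 in batch 1, and 3.87 and 4.15 in batches 2 and 4. Spp1 had 5.43 in batch 1, and 3.51 and 2.64 in batches 2 and 4. The corresponding values were 3.7, and 4.02 and 3.27, for Msln, and 3.94, and 2.45 and 2.86, for the kinetochore gene Spc25. Angptl7, a secreted angiopoietin-like protein, had 4.04, and 3.16 and 1.06, with a read in 13, 11 and 1 cells of batches 1, 2 and 4. Cd79a had 3.87, and 2.38 and 1.21. Most of the others were genes of mitosis and of the S phase: Ccnb2 had 3.97, and 4.61 and 1.09, Cdk1 4.1, and 1.43 and 2.23, and Rrm2 3.7, and 0.708 and 2.95. Ube2c, Top2a and Ccnb1 were below 5 CPM in batch 2, at 2.73, 4.05 and 3.7 CPM, and have no value there. Cenpa, with a read in 1 cell of batch 2, and Pttg1 had 4.13 and 4.25 there, but -0.209 and -0.571 in batch 4. Arl6ip1 had 0.0299 in batch 2 and 0.882 in batch 4. Of the 15, 12 had a value in batch 2. Picked by the same rule in batch 2, 15 genes shared 4 with the batch 1 choice (Npy, Spp1, Msln and Angptl7), and measured against the spike-in trend in place of the running median, 4 were shared as well.

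Lists of functions differed in their excess. The median excess in batches 1, 2 and 4 was 3.09, 2.98 and 1.71 for the G2/M list (19, 9 and 20 of its 20 genes at 5 CPM or more), 1.46, 1.74 and 1.67 for the G1/S list, 2.97, 3.19 and 1.02 for the 2 PP cell markers that had a value (of 3), 1.75, 1.79 and 3.22 for the 3, 2 and 3 δ cell markers that had one (of 6), and 1.56, 1.79 and 1.03 for immediate early and heat shock genes. In batch 2, where 1 of 29 cells passed the G2/M count described below, Cenpe (a read in 1 cell), Ccnb2 (2 cells) and Cdk1 (2 cells) reached 5 CPM through very few cells, which by itself gives a high CV. The median excess was 0.57, 0.87 and 0.61 for ER folding genes, 0.25, 0.16 and 0.19 for islet transcription factors, 0.01, -0.09 and -0.25 for glycolysis, 0, -0.28 and 0.09 for prohormone processing and -0.42, -0.36 and 0.38 for insulin and granule cargo, against a median near 0 by construction over all genes. Among the steadiest genes by this measure were Cpe (-1.93, -2.17 and -1.64), the convertase Pcsk2 (-1.82, -1.89 and -2), Scg3 (-1.3, -0.7 and -1.53) and Gapdh (-1.68, -2.11 and -1). Ins1 had -1.14, -1.82 and -1.31, but almost all genes it was set against are far less abundant. The cells were also chosen by an Ins1 reporter, and the part of that choice in the spread of Ins1 was not tested. Cpe had a CV of 0.193, 0.176 and 0.235.

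**Figure D4:**
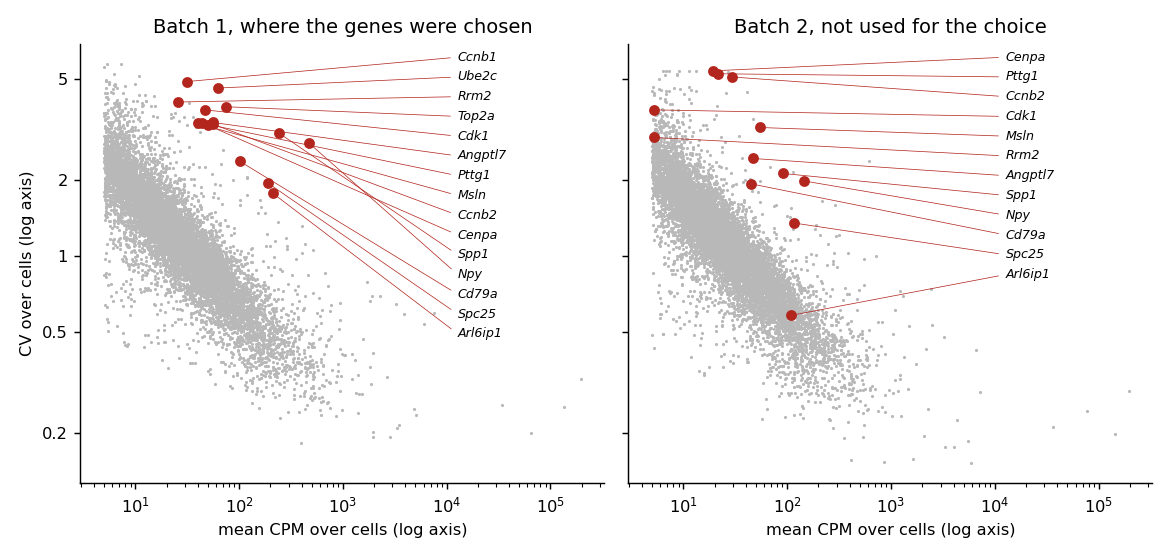
CV across cells against mean CPM of each gene, on log axes, in batch 1 (where the 15 red genes were chosen) and batch 2 (which did not enter the choice). In batch 2 the 12 red genes that reach 5 CPM still lie above most genes of their level, except Arl6ip1 with an excess of 0.0299.

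Genes of some lists varied together across the cells of a batch. Over all gene pairs the median Spearman correlation across cells was 0.015, 0.013 and 0 in batches 1, 2 and 4. It was 0.36, 0.49 and 0.2 among ER folding genes, with 0.72, 0.77 and 0.2 for the pair of Hspa5 and Pdia3, and 0.39, 0.41 and 0.9 among G2/M genes. It was 0.26, 0.26 and 0.81 among G1/S genes, 0.15, 0.24 and 0.09 among immediate early and heat shock genes and 0.03, 0.03 and -0.02 among granule cargo genes. Ins1 and Ins2 had 0.09, 0.22 and -0.03, and Ins1 and Iapp 0.51, -0.11 and 0.5. These values are descriptions over 33, 29 and 9 cells that share a library preparation and a depth scaling. The ER folding genes also differed between batches as a group, with summed levels of 5771, 2841 and 6084 TPM in batches 1, 2 and 4, and Hspa5 of 1027, 541 and 1172 TPM.

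Cell division genes were a part of this variation that could be counted by cell. A cell was counted as expressing the G2/M programme when 10 or more of its 20 genes stood at 10 CPM or more, which 8 of 71 cells did (11.3%, exact 95% interval 4.99% to 21.0%), with 3 of 33, 1 of 29 and 4 of 9 in batches 1, 2 and 4. Of the P0 α cells, 1 of 46 (2.17%) did. The same count over the G1/S list asked for 10 or more of its 18 genes. It was passed by 7 of 71 β cells (9.86%, interval 4.06% to 19.3%), with 2, 1 and 4 in batches 1, 2 and 4. Of the α cells, 11 of 46 passed it (23.9%, interval 12.6% to 38.8%). With cells pooled over batches, the order of the cell types was opposite for the 2 lists. These intervals treat cells as independent, cover counting error only and leave out the spread between batches. No G2/M gene reached 10 CPM in 43 of the 71 cells. In the 8 cells, Mki67, the classic proliferation marker, had a median of 629 CPM (156 to 763) and the topoisomerase Top2a 885 CPM (0.689 to 1950), while in the other 63 cells Mki67 ran from 0 to 57.5 CPM. Beside these values, the 8 cells had a median of 9252 genes detected (7936 to 11510), 62.2 gene reads per spike-in read (27.2 to 87.4) and 26.5% of reads from the insulin genes (15.4% to 38.5%). The other 63 cells had 8062 genes (7261 to 9640), 37.9 gene reads per spike-in read (17.6 to 73) and 34.1% insulin reads (8.21% to 43.7%), so the ranges overlapped in each of these measures. Cells were split by the genes counted, so no test was made. In the enriched batch 3, 6 of 9 cells passed the same count, with 65.6 gene reads per spike-in read, 8615 genes and 36.5% insulin reads at the median. Batch 4 was the hand-picked batch as well as the one with the largest share of such cells, and the part of collection in this difference was not tested.

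Batches also differed in sex-linked transcripts, which were looked at after the values were seen. Cells with Xist and without the Y-linked genes numbered 22, 0 and 5 in batches 1, 2 and 4, and those with Y-linked genes and without Xist 10, 28 and 3, with 1 cell in each batch showing both. Of the P0 α cells, 0 had Xist alone and 44 of 46 had Y-linked genes alone. The part of sex in the differences between batches, and between β and α cells, was not tested.

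Against E17.5 and P3, the question was whether newborn β cells differ from the mean of those just before and after birth. A steady rise or fall through birth can cancel in that mean, so this comparison cannot show it. As whole cells, the P0 β cells were not told apart from the pooled E17.5 and P3 batches. Thinned to 500000 gene reads, the median cell of P0 batches 1, 2 and 4 had 7354, 7404 and 7385 genes detected, a mean of 7381 ± 25.2, against 7471 ± 381 in the 8 E17.5 and P3 batches (6846 to 7997), a difference of -90.1 (exact permutation test over batches, two-sided, p = 0.721, Benjamini-Hochberg adjusted p over the family of 4 measures 0.879). In the median cell the insulin genes took 35.7%, 35.2% and 26.9% of gene reads in the P0 batches (mean of the batch medians 32.6% ± 4.94), against 31.9% ± 7.66 in the others, a difference of 0.734 points (exact permutation p = 0.83, adjusted 0.879). The log2 of the median cell's gene reads per spike-in read averaged 5.328 ± 0.0193 at P0 and 5.391 ± 0.536 in the others (exact permutation p = 0.879, adjusted 0.879). The median Spearman correlation between pairs of cells of a batch was 0.4815, 0.4785 and 0.4112 in P0 batches 1, 2 and 4 (mean 0.457 ± 0.0397), against 0.485 ± 0.023 in the others (exact permutation p = 0.145, adjusted 0.582). The smallest p these 165 regroupings can give is 0.00606, and the P0 values lay within the range of the other batches in each measure but the last, where batch 4 fell below it. Set beside E17.5 alone, each P0 batch lay outside the E17.5 range in each measure, while P0 and P3 overlapped. The E17.5 batches had 7499 to 7997 genes detected and 19.76% to 25.81% insulin reads. Their log2 gene reads per spike-in read were 4.65 to 5.033 and their correlations 0.4944 to 0.5143. E17.5 batches 1 and 2 were picked by hand, and P0 against E17.5 alone was not tested.

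Gene by gene, few differences from the mean of E17.5 and P3 passed the test in single cells. Of 18537 genes tested with edgeR on reads summed per batch, 9 were higher in P0 β cells than in the mean of E17.5 and P3 at an adjusted p under 0.05 (0.0486% of the genes), and 0 were lower (0.0%). At an unadjusted p under 0.05 there were 879 higher and 440 lower, and DESeq2 called 66 higher and 54 lower. Over all genes the median log2 change was 0.0367. The levels below are CPM after TMM scaling, which adjusts for library composition.

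Ivd (isovaleryl-CoA dehydrogenase, an enzyme of leucine breakdown in mitochondria, chr2:118861954-118882909) had 322, 220 and 302 CPM in P0 batches 1, 2 and 4, against 50.7, 104 and 61.5 CPM in the E17.5 batches and 119, 99.1, 95.2, 99.7 and 57.3 CPM in the P3 batches. Each P0 value was above each of the others, a condition of the rule that named Ivd and Errfi1. The log2 change of Ivd was 1.79 ± 0.26 (SE, adjusted p = 0.000822, edgeR). The rise of Ivd held when any 1 of the 11 batches was left out (highest adjusted p 0.0127). Errfi1 (a feedback inhibitor of the EGF receptor, chr4:150853919-150868892) had 348, 203 and 128 CPM in the P0 batches, against 73.8, 124 and 62.3 CPM at E17.5 and 19.6, 30.9, 38.7, 29.7 and 23.3 CPM at P3. Its P0 values were also all above the others, by a log2 change of 2.31 ± 0.47 (adjusted p = 0.0448), but the call was lost in 9 of the 11 fits that left out 1 batch. The count of 9 genes fell to 4 without β E17.5 batch 1, and with the FACS-sorted batches alone it was 0.

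The other 7 overlapped between the groups and were named after their values were seen. Insig1, which holds the sterol sensor in the ER, had 116, 100 and 133 CPM in the P0 batches, against 13.8, 39.9 and 21.7 CPM at E17.5 and 45.6, 51.2, 127, 69.1 and 80.1 CPM at P3 (log2 change 1.48 ± 0.28, adjusted p = 0.0181), a call lost without β E17.5 batch 1 or without any of the P0 batches. It was the 1 member of the cholesterol list of 17 that was called. The secreted ribonuclease gene Rnase4 had 314, 710 and 602 CPM at P0 (log2 change 1.30 ± 0.20, adjusted p = 0.00125), a call lost without P0 batch 2. Sgce, Cald1, Crispld2, Stat6 and Gm14616 had lower levels. In Crispld2, batch 4 alone was high, with 70.6 CPM against 1.97 and 0.241 CPM in batches 1 and 2. Of the 9 calls, those of Ivd and Gm14616 held in every fit that left out 1 batch.

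Genes known for changing around birth were not called in this contrast. It sets P0 against the mean of both stages, so a steady rise or fall through birth can cancel in it. Ucn3 had 54.8, 107 and 45.7 CPM in the P0 batches, against 34.6, 65.3 and 76.1 CPM at E17.5 and 384, 376, 206, 445 and 414 CPM at P3, so P0 overlapped E17.5 and lay below each P3 batch (log2 change against the mean of both -1.16, adjusted p = 0.719). Mki67 had 43.7, 23.0 and 193 CPM at P0, against 0, 1.15 and 5.39 CPM at E17.5 and 34.7 to 70.5 CPM at P3 (2.62, adjusted p = 0.664). Npy had 512, 132 and 740 CPM at P0, against 422, 990 and 1042 CPM at E17.5 and 19.3 to 308 CPM at P3 (0.48). The log2 changes of Ins1, Ins2 and Iapp were 0.18, -0.17 and 0.03. In the lists of this report, with 0 members lower, Insig1 was the member called higher. Among lists without a call, the median was 2.37 for the 20 G2/M genes, 1.16 for the 18 G1/S genes and -0.53 for the 18 ER folding genes. Over all genes it was 0.0367. Some marker lists of other cell types lay lower, down to -1.17 for the 3 Schwann markers tested. The summed G2/M levels overlapped, with 126 to 1736 CPM in the P0 batches and 8.07 to 624 CPM in the others.

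The bulk libraries of sorted β cells asked the same question with 2 libraries per stage, each from many more cells. Of 16086 genes, 422 were higher at P0 than in the mean of E17.5 and P3 (2.62%) and 466 lower (2.9%), or 5.52% in either direction, with a median log2 change of 0.0194. These counts rested on 1 library: without P0 replicate 1 they were 7 and 0. Without E17.5 replicate 1 they were 88 and 89, without E17.5 replicate 2 they were 119 and 152, and without P3 replicate 2 they were 136 and 141. The call of Pfkp (phosphofructokinase, platelet type, of glycolysis) was the only one of the 36 named genes that held in each of these fits, with 25.2 and 27.5 CPM at P0, against 3.6 and 2.87 CPM at E17.5 and 6.37 and 7.06 CPM at P3 (log2 change 2.50 ± 0.17, adjusted p = 6.66e-05). In single cells Pfkp stood at 6.31, 3.16 and 1.63 CPM at P0 and was not called.

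The genes called in single cells had these bulk values. Ivd had 575 and 546 CPM at P0, against 319 and 294 CPM at E17.5 and 163 and 207 CPM at P3 (log2 change 1.24, adjusted p = 0.00437). Errfi1 had 588 and 633 CPM at P0, against 71.2 and 93.3 CPM at E17.5 and 134 and 84.0 CPM at P3 (2.69 ± 0.48, adjusted p = 0.0144). Insig1 had 242 and 212 CPM at P0, against 63.2 and 75.0 CPM at E17.5 and 117 and 146 CPM at P3 (1.25, adjusted p = 0.012). Crispld2 had 16.5 and 22.4 CPM at P0, against 0.368 to 4.03 CPM in the others (2.93, adjusted p = 0.0222). In these 4 genes the P0 libraries lay above each of the others, and the calls were lost without P0 replicate 1, with adjusted p of 0.062 for Ivd and 0.114 for Errfi1. Rnase4, Stat6, Sgce and Cald1 were not called in bulk.

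Other genes were called in bulk and were low in single cells. The 5 largest rises were Zbtb16 (a zinc finger repressor), Fam107a, Kcnf1 (a silent potassium channel subunit), Hpgd (which breaks down prostaglandins) and Klf15 (a Krüppel-like factor). Fam107a had 82.2 and 94.0 CPM at P0, against 9.47 and 16.7 CPM at E17.5 and 1.72 and 2.21 CPM at P3 (4.12 ± 0.6, adjusted p = 0.00741). Zbtb16 had 31.0 and 19.7 CPM at P0, against 0.589 to 1.44 CPM in the others (4.51 ± 0.75, adjusted p = 0.011). In the P0 single-cell batches, Fam107a had 3.68, 1.61 and 5.34 CPM and Zbtb16 1.23, 0 and 2.48 CPM. The 5 largest falls were genes of exocrine acinar cells, led by the chymotrypsin Ctrc and the trypsin Prss1: Cpb1 had 7.86 and 54.5 CPM at P0, against 397 and 79.5 CPM at E17.5 and 2430 and 2125 CPM at P3. The acinar marker list had 9 of 11 members lower, with a summed level of 194 to 721 CPM at P0 against 1239 to 24180 CPM in the other libraries; it was 1.16 to 6.37 CPM in the P0 single-cell batches. In bulk, fewer cells of a type and less RNA per cell cannot be told apart.

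Among β cell lists in bulk, the ER folding list had 7 of 18 members lower and 0 higher (median -0.82). Hspa5 had 1763 and 1889 CPM at P0, against 3870 and 4576 CPM at E17.5 and 3546 and 3415 CPM at P3 (-1.07 ± 0.21, adjusted p = 0.0198), and Creld2 80.4 and 72.7 CPM, against 144 to 284 CPM (-1.41, adjusted p = 0.00763). In the single-cell contrast 0 of the 18 were called (median -0.53). Of 24 transcription factors 4 were lower and 1 higher, and Pdx1 had 192 and 221 CPM at P0, against 356 and 453 CPM at E17.5 and 450 and 450 CPM at P3 (-1.05 ± 0.18, adjusted p = 0.012). Ucn3 had 28.5 and 25.1 CPM, against 32.2 and 34.1 CPM at E17.5 and 105 and 133 CPM at P3 (-1.23 ± 0.17, adjusted p = 0.00633). The acinar sums given above were also lower at P0 than in the other libraries, and their part in these values was not tested. The calls of Hspa5, Pdx1 and Ucn3 were lost without P0 replicate 1, which leaves 1 P0 library.

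Against α cells of the same day, β cells differed in many genes. Of 18537 genes, 524 were higher in P0 β cells (2.83%) and 396 lower (2.14%), or 4.96% in either direction, and the median log2 change over all genes was -0.00937. On per-batch means of log2(TPM + 1), which give each cell equal weight, the split was 713 higher and 2079 lower. The count of lower genes was 211 without β P0 batch 4. Ins1, Ins2 and Gcg underlie the sorting and the labels, so their differences are not findings. Cells labelled with a second hormone are in neither group. Of 67 named genes called here, 46 kept their call when any 1 of the 6 batches was left out; the exceptions among those printed are given.

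The largest rises were genes with 0 or 1 read in all α cells together. Npy had 512, 132 and 740 CPM in β batches 1, 2 and 4 and 0 reads in the 3 α batches, at least 6867-fold higher against a floor of 3 reads over the α group (adjusted p = 0.00219). Npy lies at chr6:49822710-49829507. Frzb, a secreted Wnt antagonist, had 205, 178 and 195 CPM in β batches and 0 α reads, at least 3339-fold higher (adjusted p = 3.65e-07). Sytl4 (granuphilin, which docks insulin granules) had 685, 459 and 577 CPM against 0, 0 and 0.0467 CPM, from 1 α read, a ratio of 30269 with a counting interval of 5432 to 1195563 (adjusted p = 5.14e-11). Ucn3 had 0 α reads (at least 1263-fold higher, adjusted p = 1.84e-07) and so did Msln (at least 796-fold higher, adjusted p = 0.00292). Mafa, at 40 β reads and 0 α reads, was at least 6.97-fold higher (adjusted p = 0.0225), a call lost in 4 of the 6 fits that left out 1 batch.

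Beside Gcg, the largest falls were genes with 0 to 2 reads in all β cells together. Fgb, a fibrinogen chain made mainly in liver, had 0.0206, 0 and 0 CPM in β batches (1 read) and 55.5, 53.3 and 70.3 CPM in α batches (adjusted p = 5e-05). Serpina1d, of the alpha-1-antitrypsin family, had 2 β reads and 50.6, 51.1 and 121 CPM in α batches (adjusted p = 0.001), and since its paralogs are near-identical the reads may belong to any of them. Fam46d had 0 reads in β cells and 22.6, 41.6 and 22.0 CPM in α cells, at least 1174-fold lower (adjusted p = 9.48e-08), and the potassium channel Kcna5 0 reads and 11.7, 19.9 and 36.3 CPM, at least 932-fold lower (adjusted p = 0.000177). The α factor Irx2 had 0.123, 0 and 0 CPM in β batches, against 75.1, 65.3 and 56.5 CPM in α batches. Of 10 α markers 8 were lower and 0 higher (median -5.93, or -5.62 with the marker at 0 reads set to its bound).

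Insulin processing and release separated the cell types in part. The convertase Pcsk1 had 916, 492 and 906 CPM in β batches, against 1.32, 5.32 and 9.71 CPM in α batches (log2 change 7.23 ± 1.18, adjusted p = 7.03e-05). Ero1lb, which supplies disulfide bonds to proinsulin, had 663, 448 and 787 CPM against 20.9, 22.9 and 31.7 CPM (4.70, adjusted p = 9.82e-12), and Slc30a8 1483, 1153 and 1274 CPM against 303, 498 and 619 CPM (1.5 ± 0.21, adjusted p = 3.28e-06). Prohormone processing had 3 of 9 members higher and 2 lower (median -0.22). Of 12 granule cargo genes 8 were higher and 2 lower (median 1.40): Iapp had 33518, 34748 and 21282 CPM against 2019, 3265 and 985 CPM (3.81, adjusted p = 3.54e-06) and Chga 5816, 6334 and 3812 CPM against 1829, 2006 and 2244 CPM (1.38 ± 0.21). The 2 that fell were Resp18, at 60.3, 101 and 46.5 CPM in β batches against 740, 990 and 873 CPM in α batches (-3.71), and Pcsk1n (proSAAS, an inhibitor of Pcsk1), at 458, 542 and 312 CPM against 1914, 2100 and 1742 CPM (-2.21 ± 0.22, adjusted p = 5.49e-09). Of 18 exocytosis genes 2 were higher.

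Of 16 genes of glucose sensing 6 were higher in β cells and 0 lower (median 0.71), and of 25 transcription factors 7 were higher and 1 lower (median 0.82). Slc2a2 had 614, 469 and 532 CPM in β batches, against 1.05, 0 and 0.0467 CPM in α batches (10.21, adjusted p = 4.62e-06), and G6pc2 1754, 2112 and 947 CPM against 29.4, 19.5 and 58.2 CPM (5.50, adjusted p = 1.34e-06). Glp1r had 66, 65.7 and 58.1 CPM against 0, 0 and 0.56 CPM (8.44, adjusted p = 1.87e-07). Pdx1 had 172, 156 and 145 CPM in β batches, against 7.2, 3.02 and 0.14 CPM in α batches (5.48 ± 1.01, adjusted p = 0.000393), and Nkx6-1 126, 108 and 101 CPM against 12.4, 8.55 and 3.78 CPM (3.77, adjusted p = 2.17e-08). Mnx1, a homeobox factor of β cells, had 4.69, 7.34 and 7.35 CPM against 0.0308, 0.0657 and 0 CPM, from 2 α reads, a ratio of 156 (counting interval 43.0 to 1291, adjusted p = 2.39e-05). Groups did not overlap in any of these genes, while Neurod1, shared by both cell types, differed less (294, 342 and 261 CPM against 198, 154 and 143 CPM, 0.82 ± 0.20, adjusted p = 0.00884), a call lost without β P0 batch 2.

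ER folding was the functional list with the largest share of members higher in β cells, 13 of 18 with 0 lower (median 1.17). Hspa5 had 2166, 1140 and 1672 CPM in β batches, against 560, 714 and 642 CPM in α batches (1.36 ± 0.25, adjusted p = 0.000308). Creld2, an ER protein induced by misfolding, had 387, 128 and 252 CPM against 28.9, 22 and 37.1 CPM (3.11, adjusted p = 1.76e-06), and the co-chaperone Dnajc3 420, 252 and 325 CPM against 81.2, 69.9 and 74.4 CPM (2.12, adjusted p = 8.06e-09). β batch 2 was the lowest β batch in each of the 3, and still above each α batch. With the FACS-sorted batches alone, 2 of β and 1 of α, the adjusted p of Hspa5 was 0.0815 at a log2 change of 1.59.

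The peptide hormone genes Pyy, Ppy, Ghrl and Gast were lower in β cells, while Sst was not called (log2 change -0.9, adjusted p = 0.847) and Npy and Ucn3, above, were higher. Pyy had 99.5, 528 and 7.35 CPM in β batches, against 3773, 9926 and 7239 CPM in α batches (-4.74 ± 1.25, adjusted p = 0.017), a call lost without β P0 batch 1 or batch 4. Ppy had 32.7, 33.7 and 13.4 CPM against 983, 2983 and 5715 CPM (-6.65, adjusted p = 0.00768), lost without β P0 batch 4 (adjusted p = 0.0619). Ghrl had 0.226, 0 and 0.0774 CPM against 85, 242 and 73.6 CPM (-9.34, adjusted p = 0.00422), and the gastrin gene Gast 2.53, 0.83 and 1.55 CPM against 57.4, 170 and 57.3 CPM (-6.38, adjusted p = 0.000844). Ppy and Ghrl are hormones of the labels' calls. The immature endocrine list had 2 of 20 members higher and 3 lower: Nnat had 3200, 2309 and 3182 CPM in β batches, against 5.04, 8.09 and 8.03 CPM in α batches (8.78, adjusted p = 8.22e-08), while Peg3 had 1267, 1252 and 1227 CPM against 1839, 2424 and 3128 CPM (-0.98 ± 0.20, adjusted p = 0.0012).

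Over all genes tested against α cells, 2.83% were called higher and 2.14% lower. In the metabolic and growth lists, fatty acid oxidation had 0 higher and 1 lower of 17, and glycolysis 1 and 2 of 16. Cholesterol synthesis had 0 and 1 of 17, and MHC class I 0 and 1 of 14. The calls were Pkm (higher, 0.59, adjusted p = 0.0289), Tpi1 (-0.70) and Hk1 of glycolysis, Pmvk (-1.43) of cholesterol synthesis and H2-K1 (-1.55) of MHC class I; each was lost in 3 or 4 of the 6 fits that left out 1 batch. Pdk4 of the fatty acid oxidation list, called in all 6 such fits and the kinase that turns off pyruvate dehydrogenase in fasting, had 2.01, 0.0536 and 0 CPM in β batches, against 156, 203 and 228 CPM in α batches (-7.73, adjusted p = 8.84e-06). None of the 20 G2/M genes (0 higher, 0 lower, median 2.61) or the 18 G1/S genes (0 and 0, median 0.66) was called. Their summed level was 126 to 1736 CPM in β batches against 15.1 to 437 CPM in α batches for G2/M, and the ranges overlapped. Xist was called higher in β cells, with 131, 0.75 and 120 CPM against 0.0923, 0.394 and 0.14 CPM (8.77, adjusted p = 0.00691), beside the sex-linked counts given above. Markers of other cells were uneven as well: acinar markers summed to 1.16 to 6.37 CPM in β batches and 15.8 to 26.9 CPM in α batches, and mesenchymal markers to 0.103 to 3.64 CPM and 18.8 to 50.7 CPM; of these lists, 0 of 10 acinar and 1 of 5 mesenchymal markers (Col1a2, lower, a call lost in 5 of the 6 fits that left out 1 batch) were called. Their part in the other differences was not tested.

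**Figure D5:**
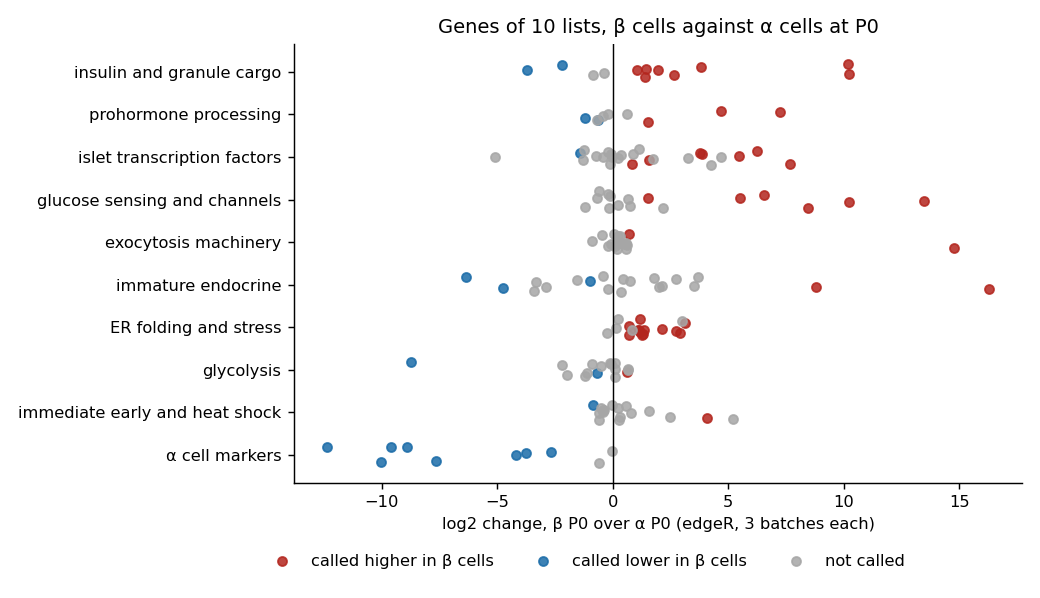
Log2 change of P0 β cells over P0 α cells for each tested member of 10 gene lists; colours mark members called higher, called lower or not called at an edgeR adjusted p under 0.05. ER folding genes lie above 0 as a group, with 13 of 18 called higher, and 8 of the 10 α cell markers are called lower.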

How the data were processed

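Read counts per gene were deposited by the authors as raw whole numbers (40824 gene rows and 92 ERCC spike-in rows), and TPM tables were deposited beside them. The submitters' processing notes name TopHat2 2.1.0, HTSeq 0.6.0 and DESeq 1.20.0 with GRCm38 and mm10, without roles. The bulk kit was strand-specific per the labels, the single-cell kit does not mark strand, and the strand setting of the counting is not given in the sources used here, so overlapping genes are uncertain. The deposited single-cell TPM equalled counts over gene length scaled per cell (largest difference 0.005); 846 TPM columns of other samples were not used.

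Reads were summed per batch for the 45 batches of unselected single-hormone cells and fitted with edgeR 4.0.16 (R 4.3.3; quasi-likelihood, TMM, filterByExpr, collection method as covariate); the 14 bulk libraries were fitted with stage as factor. A call is a Benjamini-Hochberg adjusted p under 0.05, and fold bounds use a floor of 3 reads over the group. limma 3.58.1, DESeq2 1.42.0, RLE factors, no filter, only the groups compared, the FACS-sorted batches alone, the replicate block and leaving out each replicate were alternatives. Cell measures used Python 3.11.15, numpy 2.4.6, pandas 2.3.3 and scipy 1.17.1. The members, gene lists and alternatives were chosen with earlier results of these data known.

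Named genes were the 25 highest in mean TPM, up to 4 members of each list, the 15 of largest excess in batch 1 (at least 20 CPM and 20% of cells), the 5 largest rises and falls per comparison among called genes whose groups did not overlap and whose higher group had 20 CPM or more, and the hormone genes, Mafa, Ucn3 and Mki67, among others; predicted, ribosomal and mitochondrial genes were skipped. A few genes named by this rule are left out of the report. On simulated data, 12 of 100 genes changed 2-fold and 44 of 100 changed 8-fold were recovered in the comparison with E17.5 and P3 (17660 genes), 7 and 37 in that with α cells (17660 genes), and 36 and 77 in bulk (15481 genes). Correlations of same-numbered samples were -0.0942 to 0.0967, and the main fits did not pair samples by number. This check cannot show a weak effect shared by number, and in bulk both numbers give the same value by construction.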

Additional observations from a re-analysis of the deposited data

Results flagged for a closer look

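In the 5 β P3 batches, 18 measures and genes were examined, and 2 held a batch far from the others by Dixon's test, where chance gives about 1 in 20. For Ghrl, the highest of the 5 batches had 3.85 CPM. For Ucn3, the lowest of the 5 batches (batch 3) had 206 CPM, still above each P0 batch. The P0 groups of 3 batches are too small for this test.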

How the results depend on the processing

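Against E17.5 and P3, the 9 higher and 0 lower calls became 66 and 54 with DESeq2, 33 and 11 on log2(TPM + 1), 14 and 1 without a filter on low counts, and 0 and 0 in the FACS-sorted batches alone; leaving out 1 batch gave 4 to 11 and 0 to 1. Against α cells, the 524 and 396 calls became 855 and 727 with DESeq2, 713 and 2079 on log2(TPM + 1), 130 and 103 in the FACS-sorted batches alone, 200 and 171 with only the groups compared, and 354 to 458 and 211 to 360 without 1 batch. In bulk, 422 and 466 became 851 and 936 with DESeq2, 1463 and 1066 without a filter, 294 and 199 with only the groups compared, and 7 to 393 and 0 to 436 without 1 library. With the replicate number as a block, the counts were 5 and 0, 456 and 321, and 411 and 435. The cause was not tested.

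The difference in genes detected turned to 30.3 without thinning, the insulin share difference ran from -0.995 to 3.58 points without 1 batch, and the spike-in log2 difference turned to 0.0172 in FACS-sorted batches and ran from -0.168 to 0.0603 without 1 batch. On log2(TPM + 1), Pkm (-0.01) and Mrfap1 (-0.02) turned sign against α cells. No scaling moved the median of all genes by more than 0.1. The single-cell comparisons rest on 3 P0 batches, of which batch 4 holds 9 cells.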

Other observations

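Some pairs of genes moved together or apart across the P0 cells and were looked at after their values were seen. Spc25, of the kinetochore, and G6pc2, the islet phosphatase subunit, lie 4878 bases apart on chromosome 2 on opposite strands, and their Spearman correlation across cells was 0.48, 0.29 and 0.18 in batches 1, 2 and 4. Spc25 had a read in 53 of 71 cells, against 22 for Top2a and 17 for Mki67. Npy and Pyy had a correlation of -0.4, -0.39 and 0.36 in those batches, so the sign in the 9 cells of batch 4 was opposite to that in the others. Hspa5 and Ins2 had -0.11, -0.02 and -0.33.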
